A study of Mus musculus with 6 samples.

Results

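The PYHIN genes of the p200 cluster are a family of interferon-inducible paralogs that lie side by side on mouse chromosome 1. The 10 genes described here (Ifi203, Ifi204, Ifi205, Ifi207, Ifi208, Ifi209, Ifi211, Ifi213, Mndal and Aim2) were taken by symbol from a table of 30029 genes, and all 10 passed the filter on low counts, among 17606 genes in all. The study sequenced polyadenylated liver RNA of mice fed a high-fat diet for 24 weeks, with 3 libraries labelled as wild type and 3 as ATP7B knockout (Atp7b-/-). ATP7B is the hepatocyte copper-transporting ATPase that is lost in Wilson disease. Both groups had the same diet, and no group on another diet was used here. The sources used here do not give the strain, the age, the knockout allele or whether each library came from 1 animal. Total counts were 57886524 to 70965999 per library. Atp7b itself had 17.5, 22.4 and 33.9 CPM in the wild-type-labelled libraries and 25.9, 27.1 and 23.6 CPM in the knockout-labelled ones, so its level did not check the labels, and groups are named here by label alone. CPM is a count divided by the TMM-scaled library size in units of 1e6 reads. The liver label was checked against 10 hepatocyte markers, which together made up 58600 to 76300 CPM in each library.

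PYHIN proteins carry an amino-terminal pyrin domain, which binds other pyrin domains, and in most cases 1 or more HIN domains, which bind double-stranded DNA. Aim2 uses them to sense DNA in the cytosol and to assemble an inflammasome with the adaptor ASC (Pycard) and caspase-1, whereas mouse Ifi204 (p204) binds DNA and signals through the adaptor STING. Much of the family is induced by interferon and is best known from macrophages and other immune cells.

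The promoters are described first, and their part in the differences between the libraries was not tested. RefSeq held promoter windows (250 bases before to 50 after the annotated start, GRCm38.p6) for 9 of the 10 genes, with 11 windows in all, since Ifi203 and Mndal had 2 starts each. Ifi204 had no entry. The core of the interferon-stimulated response element, searched on both strands as GAAA, any 2 bases and GAAA, was found in 7 of those 9 genes and in 8 of their 11 windows. It was present in 3.44% of all 32851 promoter windows of the same length. The gamma-activated site, searched as TTC, any 3 bases and GAA, was in 0 of the 11 windows and in 8.3% of all windows. In 5 of the genes (Ifi203, Ifi207, Ifi208, Ifi213 and Mndal) the match was GAAATCGAAA, which occurred in 0.0487% of all windows. The stretches below run from 15 bases before the match to 25 after it, with the match in capitals.

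Ifi213: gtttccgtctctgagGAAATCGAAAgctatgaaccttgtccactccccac
Ifi207: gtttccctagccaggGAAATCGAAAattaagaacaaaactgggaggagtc
Mndal: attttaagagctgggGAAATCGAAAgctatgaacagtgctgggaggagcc
Ifi211: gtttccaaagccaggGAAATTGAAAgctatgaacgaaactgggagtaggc
Ifi205: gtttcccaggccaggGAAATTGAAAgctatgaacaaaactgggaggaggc
Ifi209: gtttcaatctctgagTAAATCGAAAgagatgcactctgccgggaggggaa

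These stretches lie on GRCm38.p6 at chr1:173599311-173599360 (Ifi213, minus strand), chr1:173741816-173741865 (Ifi207, minus), chr1:173880189-173880238 (Mndal, minus), chr1:173913049-173913098 (Ifi211, minus), chr1:174031855-174031904 (Ifi205, minus) and chr1:173630765-173630814 (Ifi209, plus). The Ifi208 stretch (chr1:173673592-173673641, plus) had the letters of Ifi213, and the Ifi203 stretch (chr1:173942493-173942542, minus) had those of Mndal. In the gene's direction the match began at position -73 in Ifi213, -58 in Ifi208, -41 in Ifi207, -37 in Ifi211, -36 in Mndal, -35 in Ifi203 and -134 in Ifi205, counted from the annotated start. Further matches on the opposite strand were TTTCTCTTTC at -54 in the other Mndal window and TTTCACTTTC at 24 in Ifi205. The count of windows given above takes in that other Mndal window. The Ifi209 window had no match, and its capitals mark a stretch that differs from GAAATCGAAA by 1 base, G1T, counted from the first base of the core. The interferon core followed directly by gctatgaac was held by 7 genes of the 27025 in the promoter table. All 7 were p200 genes, namely Ifi203, Ifi205, Ifi208, Ifi211, Ifi213, Mndal and, outside the 10, Ifi206. The Aim2 window held neither motif. GAAATCGAAA and gctatgaac were picked as the commonest letters among the matches of the 10 genes themselves. How often they occur in this family therefore follows from that choice and is no separate result. The contrast with all other windows was not tested. Stretches were alike among these paralogs, so the genes with a match are not independent cases. All matches given here are of letters in a window and were not tested as sites.

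In the knockout-labelled libraries 6 of the 10 genes rose (Ifi203, Ifi204, Ifi207, Ifi209, Ifi213 and Mndal), by 1.72-fold to 3.29-fold, and 0 fell. Of all 17606 tested genes 0.932% were called higher and 0.506% lower at an adjusted p under 0.05 (edgeR's quasi-likelihood test, Benjamini-Hochberg adjustment over all tested genes). In 9 of the 10, every library labelled knockout stood above every library labelled wild type, which held for 13.7% of all tested genes. The median log2 fold change of the 10 was 1.35, and that of all tested genes was -0.02. The 10 genes and the lists below were chosen with earlier results of these data known. Values over all genes are therefore set beside theirs as a description only. Of the 10 genes, 9 were higher and 0 lower at an unadjusted p under 0.05, where 12% of all tested genes were higher. DESeq2 called 9 higher and 0 lower, with 6.73% of all genes called higher, and limma voom called 1 higher (Ifi204) and 0 lower, with 0.182%. All 6 calls stood close to the threshold, at adjusted p of 0.0439 to 0.0498. With edgeR 0 of the 10 were called without replicate 2 or 3 of the wild type or replicate 1 or 3 of the knockout, although 9 had an unadjusted p under 0.05 in each of these 4 fits. In the same fits the calls over all genes numbered 0, 4, 11 and 33 in that order. Without knockout replicate 2, 8 of the 10 were called, along with 3.97% of all genes called higher. In whole liver RNA, more cells of a type that holds these transcripts and more transcript per cell cannot be told apart.

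**Figure D1:**
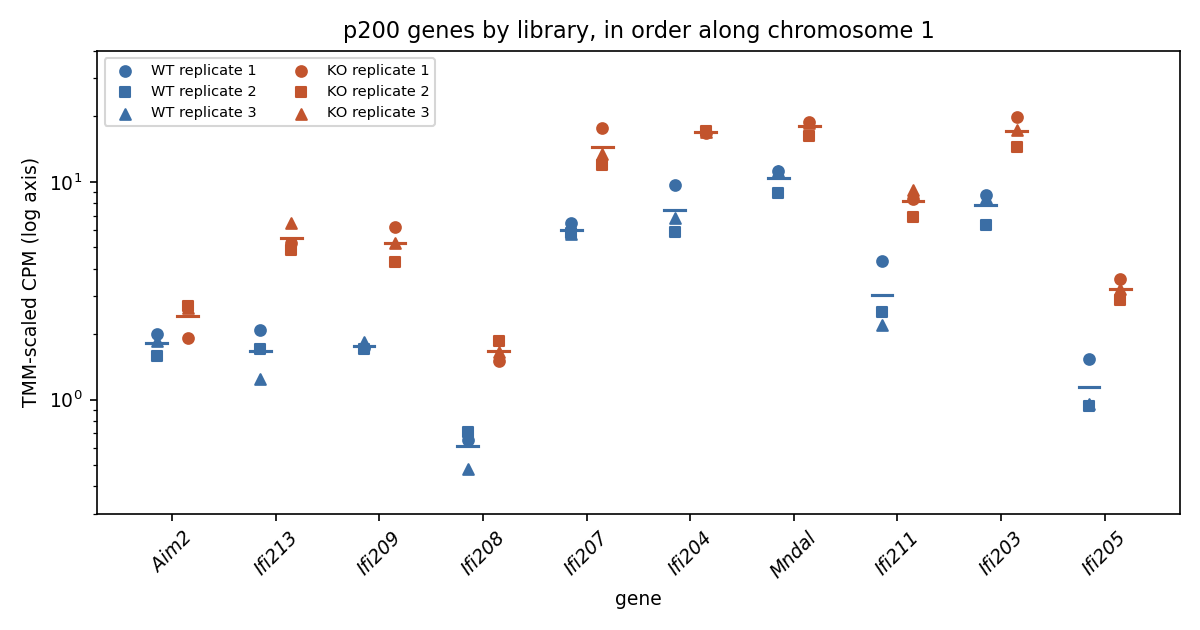
TMM-scaled CPM (log axis) of the 10 genes in each of the 6 libraries, with group means as bars. In 9 genes the 3 libraries labelled knockout (KO) lie above the 3 labelled wild type (WT), and in Aim2 the groups overlap.

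Ifi204 (p204, ENSMUSG00000073489; GRCm39 chromosome 1, 173574859 to 173594509, minus strand), the DNA sensor that signals through STING, had 9.69, 5.88 and 6.80 CPM in the wild-type-labelled libraries and 16.8, 17.2 and 16.9 CPM in the knockout-labelled ones. The latter had an SD of 0.172 CPM, while wild-type replicate 1 was the highest of its group. The log2 fold change was 1.19 ± 0.20 (SE), with a 95% interval of 0.73 to 1.64 (adjusted p = 0.0453). Ifi207 (ENSMUSG00000073490; 173550993 to 173569313, minus strand), a p200 member that mouse studies also place with STING signalling, had 6.51, 5.80 and 5.75 CPM against 17.6, 12 and 13.5 CPM. Knockout replicate 1 was the highest, and the lowest library labelled knockout was 1.84 times the highest labelled wild type. Ifi207 rose 2.39-fold (log2 fold change 1.25 ± 0.19, interval 0.83 to 1.68, adjusted p = 0.0439), the smallest p of the 10 genes.

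Ifi203 (ENSMUSG00000039997; 173747973 to 173770238, minus strand) had 8.67, 6.36 and 8.43 CPM in the wild-type-labelled libraries and 19.9, 14.4 and 17.3 CPM in the knockout-labelled ones. Replicate 2 was the lowest in both groups. The gene rose 2.20-fold (log2 fold change 1.14 ± 0.19, interval 0.71 to 1.56, adjusted p = 0.0453). Mndal (ENSMUSG00000090272; 173676692 to 173707753, minus strand), named for its likeness to the human myeloid nuclear differentiation antigen, had 11.2, 8.94 and 11.2 CPM against 18.9, 16.3 and 18.7 CPM. Its groups did not overlap, and its rise of 1.72-fold was the smallest among the 6 called (log2 fold change 0.78 ± 0.15, interval 0.44 to 1.12, adjusted p = 0.0498).

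Ifi209 (ENSMUSG00000043263; 173458483 to 173475494, plus strand) and Ifi213 (ENSMUSG00000073491; 173393849 to 173426840, minus strand), both toward the Aim2 end of the cluster, had the largest fitted fold changes with all 6 libraries. Without wild-type replicate 1, Ifi211 (log2 fold change 1.78) and Ifi205 (1.76) stood above Ifi209 (1.57), so this order rests on that library. Ifi209 had 1.73, 1.71 and 1.84 CPM in the wild-type-labelled libraries, an SD of 0.0671 CPM, and 6.24, 4.31 and 5.23 CPM in the knockout-labelled ones. Even its lowest library labelled knockout was 2.35 times the highest labelled wild type. Ifi209 rose 2.99-fold (log2 fold change 1.58 ± 0.25, interval 1.02 to 2.14, adjusted p = 0.0447). Ifi213 had 2.10, 1.71 and 1.24 CPM against 5.25, 4.85 and 6.49 CPM and rose 3.29-fold (log2 fold change 1.72 ± 0.28, interval 1.07 to 2.36, adjusted p = 0.0453). The intervals of the 2 genes overlap almost wholly, and their order is not established.

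Ifi205, Ifi208 and Ifi211 did not pass the threshold, although their groups did not overlap either. Ifi205 (p205; ENSMUSG00000054203; 173839564 to 173859376, minus strand), known in mouse macrophages as a regulator of ASC expression, had 1.54, 0.939 and 0.959 CPM in the wild-type-labelled libraries and 3.58, 2.86 and 3.23 CPM in the knockout-labelled ones. Its log2 fold change was 1.49 ± 0.32 (interval 0.77 to 2.22, adjusted p = 0.0562). Ifi211 (ENSMUSG00000026536; 173723911 to 173740612, minus strand) had 4.32, 2.53 and 2.20 CPM against 8.31, 6.93 and 9.22 CPM, with a log2 fold change of 1.44 ± 0.29 (interval 0.77 to 2.10, adjusted p = 0.0526). For both, wild-type replicate 1 was well above the other libraries of its group. Ifi208 (ENSMUSG00000066677; 173501241 to 173525961, plus strand) rested on 34, 38 and 29 counts in the wild-type-labelled libraries and 116, 131 and 147 counts in the knockout-labelled ones. In CPM these were 0.655, 0.713 and 0.479 against 1.51, 1.86 and 1.66. Its log2 fold change was 1.44 ± 0.35 (interval 0.63 to 2.26, adjusted p = 0.0743).

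Aim2 (ENSMUSG00000037860; 173178445 to 173293606, plus strand), the inflammasome sensor, was the exception. It had 2, 1.58 and 1.87 CPM in the wild-type-labelled libraries and 1.93, 2.68 and 2.63 CPM in the knockout-labelled ones. Knockout replicate 1 fell inside the range of the wild-type libraries, so the groups overlapped. The log2 fold change was 0.41 ± 0.29, and its interval of -0.25 to 1.07 takes in no change as well as a rise of 2.10-fold (adjusted p = 0.487). The difference between Aim2 and the other 9 genes was not tested. The gene overlaps Cadm3, a cell adhesion gene on the opposite strand with 216 to 448 counts per library, and since the use of strand in the counting is not stated, reads of the shared stretch could not be told apart.

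**Figure D2:**
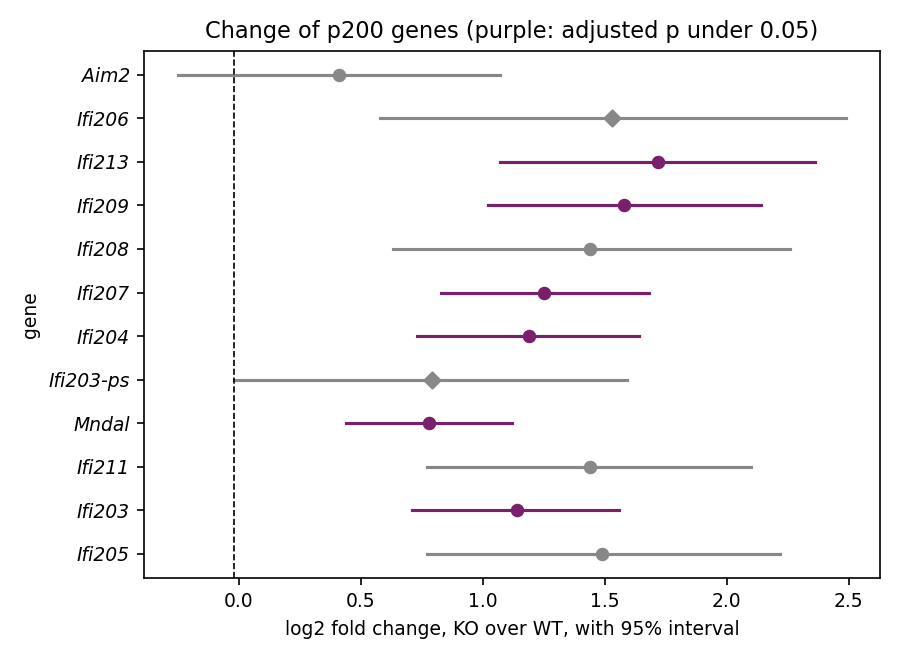
Log2 fold change (KO over WT) with 95% interval for the 10 genes (circles) and 2 other p200 genes (diamonds), in order along the chromosome. Purple marks an adjusted p under 0.05, and the dashed line is the median of all tested genes at -0.02. Aim2 has the smallest value, 0.41, and Ifi213 the largest, 1.72.

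Summed over the 10 genes, the family had 2511, 1926 and 2467 counts in the wild-type-labelled libraries and 7660, 5874 and 8402 counts in the knockout-labelled ones. In CPM the sums were 48.4, 36.2 and 40.8 against 100, 83.3 and 94.9. Dividing counted reads differently among the 10 genes would not change the sum. Reads shared with genes outside the 10, as between Ifi209 and Ifi214, or reads left out of the counting could change it. The group means were 41.8 ± 6.17 and 92.8 ± 8.58 CPM (SD, n = 3 each), a ratio of 2.22 that is given without a test because it is a score over chosen genes. With total-count scaling the median of all genes moved from -0.02 to 0.31 on the log2 scale. The median of the 10 genes relative to that of all genes was 1.36 with TMM and 1.37 with total counts.

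The make-up of the family sum differed between the groups. Mndal made up 23.1% to 27.5% of the counts of the 10 genes in the wild-type-labelled libraries and 18.9% to 19.7% in the knockout-labelled ones. Aim2 went from 4.36% ± 0.219 to 2.64% ± 0.653 (SD, n = 3 each), and its groups did not overlap. In the other direction, Ifi213 went from 4.04% ± 0.883 to 5.97% ± 0.802, Ifi209 from 4.27% ± 0.604 to 5.64% ± 0.544 and Ifi205 from 2.71% ± 0.429 to 3.47% ± 0.0915, again without overlap. The shares of Ifi203, Ifi204, Ifi207, Ifi208 and Ifi211 overlapped between groups. These shares are a description, since 3 libraries against 3 cannot give a two-sided exact permutation p below 0.1 and a larger share of 1 gene lowers those of the others.

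**Figure D3:**
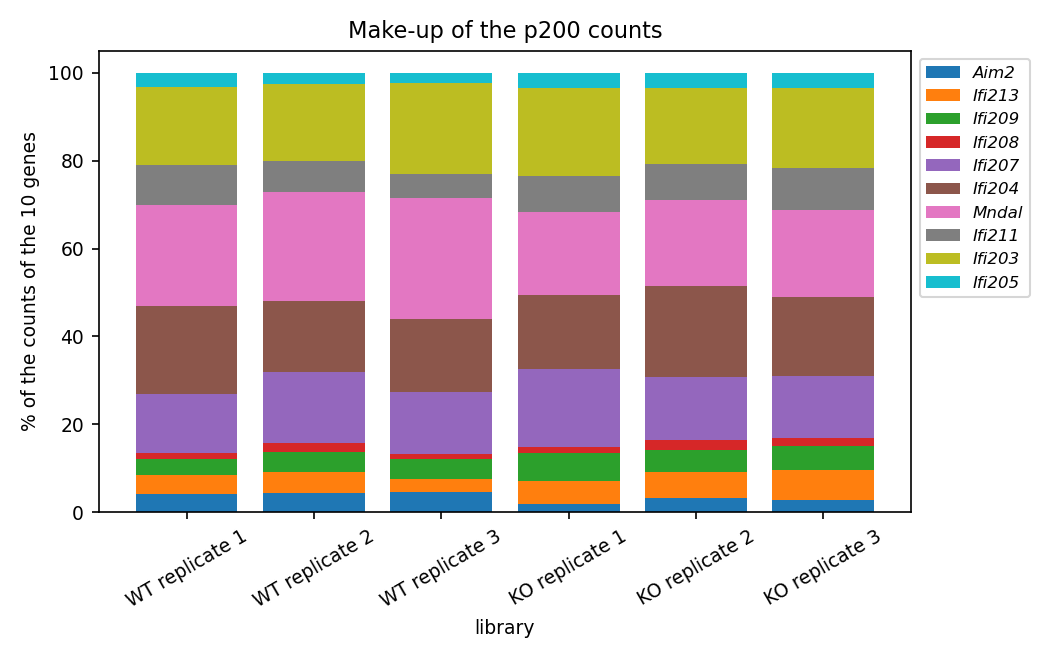
Share of each gene in the summed raw counts of the 10 genes (%), 1 bar per library. Mndal (pink) takes 23.1% to 27.5% in the WT libraries and 18.9% to 19.7% in the KO libraries.

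Levels of different genes were compared per length, as CPM per kb of annotated exon (GENCODE vM21, matched by gene identifier for all 10). In the wild-type-labelled libraries, Mndal had the highest mean level at 2.87 ± 0.358 CPM per kb, followed by Ifi204 (2.09 ± 0.559), Ifi207 (1.76 ± 0.124), Ifi211 (1.69 ± 0.639) and Ifi203 (1.17 ± 0.189). Neighbours in this order overlapped over the libraries, save that Ifi203 stood clear above the next, Aim2 (0.520 ± 0.0623). Aim2 and Ifi209 (0.496 ± 0.0189) overlapped, Ifi205 (0.275 ± 0.0819) and Ifi213 (0.246 ± 0.063) stood below them, and Ifi208 was lowest (0.117 ± 0.0232). In the knockout-labelled libraries, Mndal (4.96 ± 0.408), Ifi204 (4.77 ± 0.0483), Ifi211 (4.57 ± 0.644) and Ifi207 (4.21 ± 0.856) overlapped at the top. Ifi203 (2.56 ± 0.409) and Ifi209 (1.48 ± 0.272) followed, each without overlap with its neighbours. Ifi213 (0.808 ± 0.125), Ifi205 (0.771 ± 0.0855) and Aim2 (0.691 ± 0.120) overlapped, and Ifi208 (0.320 ± 0.0327) was again lowest. Aim2 thus stood in place 6 of 10 in the former group and in place 9 in the latter.

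Because the paralogs are similar, the transcript sequences of GENCODE vM21 were searched for 100-base words that a gene shares with any other gene. Ifi211 shared 56.9% of its words, mostly with Ifi205, so its count is the least certain of the 10. Ifi209 shared 16.9% (with Ifi214), Ifi205 15.0% (with Ifi211) and Ifi204 10.7%. The other 6 shared 0% to 6.38%, among them Mndal (6.38%), Ifi203 (2.84%) and Ifi207 (0.79%), while Aim2 shared none. With 50-base words the share ran from 0.628% in Aim2 to 72.8% in Ifi211. The sources used here do not say how long the reads were or how reads that map to several genes were handled. Of the 6 called genes, Ifi213 shared 3.3% of its 100-base words. Among these 6, Ifi209 shared the most of its 50-base words (33.7%) and Ifi207 the least (7.29%). Between them, in falling order, lay Ifi204, Mndal (19.6%), Ifi213 (15.6%) and Ifi203 (12.2%). The part of shared reads in the differences was not tested.

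Across the 6 libraries, each of the 9 genes other than Aim2 followed the mean log2 CPM of the remaining 9 with a Pearson correlation of 0.936 to 0.991, and Aim2 with 0.728. These are descriptions over 6 libraries in 2 groups, so the correlation takes in the difference between groups. Knockout replicate 2 had the lowest of its group's values for 7 of the 10 genes, and wild-type replicate 1 the highest of its group's for 7. By the same measure, the 5 genes outside the family with the most similar profile to its mean, out of 12150 with at least 1 CPM, were Actr2 (r = 0.9985), Picalm (0.9952), Tlnrd1 (0.9948), Nes (0.9941) and Nptn (0.9930). Of these, Actr2 (a subunit of the actin-nucleating complex) had log2 fold change 0.30 ± 0.11 (adjusted p = 0.191). The intermediate filament Nes rose by 2.13 ± 0.36 on the log2 scale (adjusted p = 0.0453).

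Other p200 genes of the cluster were measured at low levels. Ifi206, a p200 paralog between Aim2 and Ifi213, had 1.31, 0.957 and 0.479 CPM in the wild-type-labelled libraries and 2.73, 3.09 and 2.12 CPM in the knockout-labelled ones. Its groups did not overlap, with a log2 fold change of 1.53 ± 0.42 (adjusted p = 0.0931). The pseudogene Ifi203-ps had 1.16, 1.33 and 1.95 CPM against 3.32, 1.87 and 2.47 CPM, with overlapping groups and a log2 fold change of 0.79 ± 0.35 (adjusted p = 0.264). Ifi214 had 5, 0 and 4 counts against 10, 16 and 4 and did not pass the filter. Of these 3 genes edgeR called 0, with 1 higher at an unadjusted p under 0.05, where 12% of all tested genes were higher. DESeq2 called 1 higher (6.73% of all genes) and limma voom 0. Ifi202b, Pyhin1, Pydc3 and Pydc4 were not found by symbol, so nothing is known here of their levels.

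Genes around the cluster lay in both directions. Within 1 Mb of the span of the 10 genes there were 17 tested genes outside it, with a median log2 fold change of 0.02 and a range of -4.34 to 2.81. Of these 17, 1 rose and 1 fell: the immune receptor Slamf9, from 1.08 ± 0.365 to 4.76 ± 2.15 CPM (adjusted p = 0.0498), and Apcs, serum amyloid P, from 481 ± 160 to 80.6 ± 33.7 CPM (adjusted p = 0.0412). The groups did not overlap in 4 of the 17 upward and in 4 downward, against 13.7% and 12% of all tested genes. The nearest tested genes were the chemokine-binding receptor Ackr1, 17.1 kb before the cluster (log2 fold change -0.30 ± 1.01, adjusted p = 0.915), and the actin nucleator Fmn2, 470 kb after it (-0.56 ± 0.33, adjusted p = 0.408). Cadm3, which overlaps Aim2, had log2 fold change 0.09 ± 0.32 (adjusted p = 0.928).

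**Figure D4:**
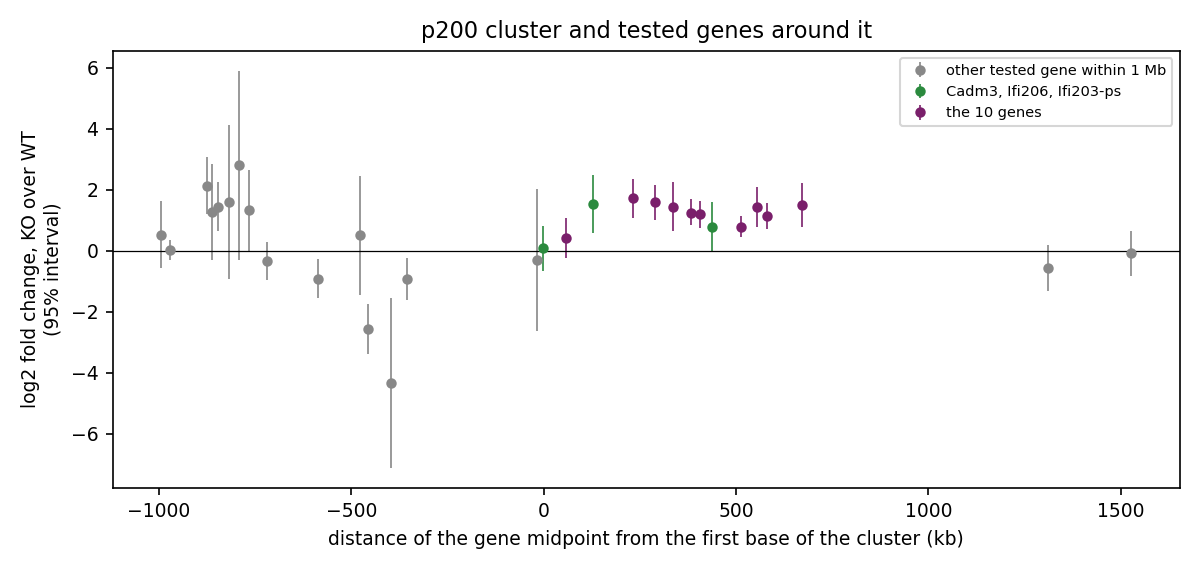
Log2 fold change (KO over WT, 95% interval) against the distance of each gene's midpoint from the first base of the cluster (kb), for the 10 genes (purple), Cadm3, Ifi206 and Ifi203-ps (green) and the 17 other tested genes within 1 Mb (grey). The 10 genes lie between 0.41 and 1.72, and the grey genes between -4.34 and 2.81.

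Genes of inflammasomes and pyroptosis lay in both directions. Of 13 inflammasome and pyroptosis genes edgeR called 0, with 3 higher and 2 lower at an unadjusted p under 0.05; DESeq2 called 0 higher and 1 lower, and limma voom called 0. Their median log2 fold change was 0.29. Among all tested genes 12% were higher at an unadjusted p under 0.05, and DESeq2 called 6.73% of all genes higher. The 2 with the smallest p were lower: Gsdmd, the pore-forming gasdermin, at 47.3, 52.7 and 47.2 CPM against 31.8, 36.9 and 36.6 CPM (log2 fold change -0.48 ± 0.12, adjusted p = 0.0718), and Ninj1, which ruptures the membrane of dying cells, at 180 ± 32.0 against 116 ± 16.3 CPM (-0.63 ± 0.18, adjusted p = 0.105). The core partners of Aim2, chosen here for their role after their values were seen, had higher means. The adaptor Pycard had 1.68, 1.16 and 1.34 CPM against 3.02, 1.65 and 5.03 CPM, with overlapping groups (log2 fold change 1.21 ± 0.43, adjusted p = 0.167). Casp1, caspase-1, had 3.41, 1.24 and 2.68 CPM against 3.84, 5.18 and 5.25 CPM, without overlap (0.96 ± 0.37, adjusted p = 0.205).

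Of 14 genes of cytosolic nucleic acid sensing edgeR called 0, with 4 higher and 2 lower at an unadjusted p under 0.05, while DESeq2 called 4 higher and 0 lower and limma voom 0. Of all tested genes 12% were higher at an unadjusted p under 0.05, and DESeq2 called 6.73% of all genes higher. The median of the 14 genes was -0.02, that of all tested genes. Cgas, which makes the second messenger of the DNA-sensing pathway, had 21, 9 and 20 counts in the wild-type-labelled libraries and 113, 83 and 118 in the knockout-labelled ones (log2 fold change 2.13 ± 0.46, adjusted p = 0.0566). Sting1, the STING adaptor itself, had 3.14, 1.76 and 2.07 CPM against 7.20, 4.18 and 8.66 CPM (1.52 ± 0.34, adjusted p = 0.0626). Neither passed the threshold, and in both the groups did not overlap.

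Upstream of the family, only 2 of 9 interferon genes were found by symbol among the 30029 genes, and neither passed the filter on low counts. Ifnb1, Ifna1, Ifna2, Ifna4, Ifnl2, Ifnl3 and Ifne were not found, so nothing is known here of their levels. Ifng had 0, 4 and 0 counts in the wild-type-labelled libraries and 0, 3 and 23 in the knockout-labelled ones, and Ifnk had counts in 1 library only. At this depth 3 counts correspond to 0.0339 to 0.0578 CPM. Of 16 receptor and signalling genes edgeR called 0, with 4 higher and 0 lower at an unadjusted p under 0.05, where 12% of all tested genes were higher. DESeq2 called 2 higher (6.73% of all genes) and limma voom 0 (median log2 fold change 0.22). The interferon-gamma receptor chain Ifngr1 had 18.2 ± 3.09 against 30.4 ± 6.04 CPM (0.74 ± 0.18, adjusted p = 0.0765). Usp18, which restrains interferon signalling, had 9.27 ± 4.49 against 19.6 ± 3.95 CPM (1.08 ± 0.34, adjusted p = 0.133).

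Of 31 genes stimulated by type I interferon 2 rose and 0 fell, and 14 had groups that did not overlap upward against 0 downward. Over all tested genes 0.932% were called higher, while 13.7% did not overlap upward and 12% downward. At an unadjusted p under 0.05, 15 of the 31 were higher and 0 lower, where 12% of all tested genes were higher. DESeq2 called 13 higher (6.73% of all genes) and limma voom 1 (0.182%). With total-count scaling edgeR called 15 (5.34% of all genes called higher) and with no filter 7 (1.25%). It called 1 with DESeq2 size factors and 1 with a filter of 10 counts in 3 libraries. The median log2 fold change of the 31 genes was 0.54. The oligoadenylate synthetase-like gene Oasl2 had 5.93, 5.52 and 4.30 CPM against 18.4, 16.7 and 21.4 CPM (1.84 ± 0.18, adjusted p = 0.038), and the synthetase Oas3 had 2.58, 1.97 and 1.45 CPM against 7.34, 5.89 and 4.61 CPM (1.57 ± 0.30, adjusted p = 0.0498). Of 17 GTPases and chemokines induced by interferon-gamma edgeR called 0, with 9 higher and 0 lower at an unadjusted p under 0.05; DESeq2 called 6 higher and limma voom 0. Their median was 0.81. The guanylate-binding protein Gbp3 had 7.14 ± 1.22 against 14.5 ± 3.77 CPM (1.02 ± 0.23, adjusted p = 0.0627), and the T cell GTPase Tgtp2 had 4.46 ± 1.33 against 9.83 ± 1.72 CPM (1.14 ± 0.26, adjusted p = 0.0633). Without knockout replicate 2 edgeR called 5 of the 31 type I genes, and without wild-type replicate 1 it called 6; without wild-type replicate 2 or 3, or knockout replicate 1, it called 0.

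Immune cell markers were measured in the same libraries. Of 15 monocyte and macrophage markers 1 rose and 0 fell, and 12 had groups that did not overlap upward. Over all tested genes 0.932% were called higher and 13.7% did not overlap upward. All 15 markers had positive log2 fold changes, with a median of 1.56, or 1.07 without knockout replicate 3. At an unadjusted p under 0.05, 13 of the 15 were higher and 0 lower, where 12% of all tested genes were higher. DESeq2 called 11 higher (6.73% of all genes) and limma voom 1 (0.182%). Without knockout replicate 2 edgeR called 7, without wild-type replicate 1 it called 6 and with total counts 5, but 0 without any 1 of the other 4 libraries. Their summed level was 315 to 490 CPM in the wild-type-labelled libraries and 965, 685 and 1650 CPM in the knockout-labelled ones, where replicate 3 was the highest. The p200 sum was 0.0987, 0.115 and 0.128 of that marker sum in the wild-type-labelled libraries and 0.104, 0.122 and 0.0575 in the knockout-labelled ones. Spp1, which is also on the bile duct list, made up 581 of the 1650 CPM in knockout replicate 3. Without it the ratios were 0.125, 0.161 and 0.168 against 0.136, 0.136 and 0.0889, an alternative chosen after seeing the data. The called marker was the lysosomal glycoprotein Cd68, at 17.1, 11.9 and 11.6 CPM against 39.4, 31.3 and 47.4 CPM (log2 fold change 1.55 ± 0.21, adjusted p = 0.039). The sum of 8 dendritic cell markers was 10.4 to 18.6 CPM against 21.9 to 43.0 CPM (median log2 fold change 1.37, or 0.71 without knockout replicate 3, 0 called by edgeR, 2 at an unadjusted p under 0.05, 2 by DESeq2 and 0 by limma voom). None of the markers in these lists was at 0 in every library. The p200 sum over the dendritic cell marker sum was 2.6, 3.48 and 3.43 against 3.44, 3.8 and 2.21. Over the stellate cell and fibroblast sum it was 0.183, 0.134 and 0.136 against 0.11, 0.15 and 0.127. Ratios over the B cell, T and natural killer cell and bile duct sums overlapped too, so overlap was not particular to macrophage markers. Those over the Kupffer, neutrophil, endothelial and hepatocyte sums were higher in the knockout-labelled libraries, without overlap. The part of any of these cells in the p200 differences was not tested.

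Resident Kupffer cell markers summed to 890 to 1030 CPM in the wild-type-labelled libraries and 451 to 858 CPM in the knockout-labelled ones. That gap between the sums rests on C6: without it, an alternative chosen after seeing the data, the sums were 725, 424 and 538 against 552, 620 and 277 CPM and overlapped. By single markers, 2 of the 10 had a positive log2 fold change. Groups did not overlap downward in 4 and upward in 0, which held for 12% and 13.7% of all tested genes. Of these 10 markers edgeR called 0, with 0 higher and 2 lower at an unadjusted p under 0.05 and 0 by DESeq2 or limma voom (median -0.55). Sums of B cell markers (3.98 to 11.9 against 6.78 to 14.0 CPM), of T and natural killer cell markers (6.70 to 7.98 against 6.07 to 16.9 CPM), of neutrophil markers (7.92 to 11.1 against 8.49 to 13.2 CPM) and of endothelial markers (156 to 209 against 158 to 255 CPM) overlapped between the groups. The T and natural killer cell markers had a median log2 fold change of 0.85, or 0.23 without knockout replicate 3, and 11 of 12 were positive. Of these edgeR called 0, with 2 higher and 1 lower (Cd4) at an unadjusted p under 0.05. DESeq2 called 1 higher and 1 lower. Medians were 0.10 for B cell, -0.38 for neutrophil and 0.27 for endothelial markers. Of 10 stellate cell and fibroblast markers 3 rose and 0 fell, where 0.932% of all tested genes were called higher. The sum of the 10 markers was 265 to 300 against 555 to 910 CPM. All 10 were higher at an unadjusted p under 0.05, where 12% of all tested genes were higher. DESeq2 called 9 (6.73% of all genes) and limma voom 2 (0.182%), and over the alternatives the count ran from 0 to 9. Of the bile duct markers tested, 1 rose and 0 fell, with sums of 101 to 126 against 102 to 682 CPM. DESeq2 called 5 of these (6.73% of all genes called higher) and limma voom 1 (0.182%). Without knockout replicate 2 edgeR called 6 of these, and 912 of all genes.

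**Figure D5:**
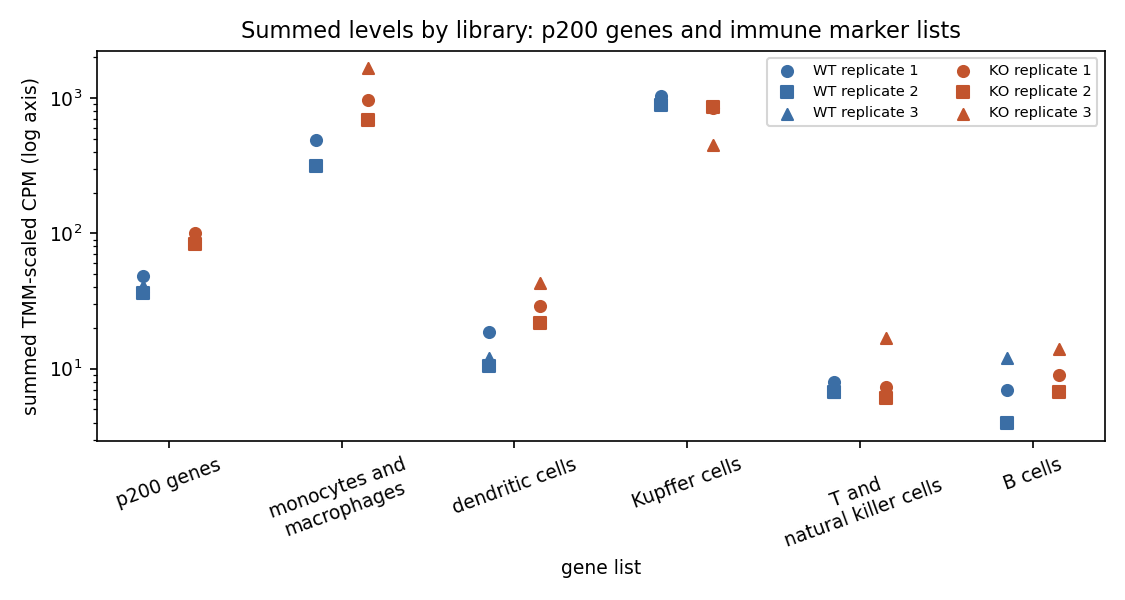
Summed TMM-scaled CPM (log axis) of the 10 p200 genes and of 5 immune marker lists in each library. The p200 sum lies at 36.2 to 48.4 in the WT and 83.3 to 100 in the KO libraries, and the monocyte and macrophage sum at 315 to 490 and 685 to 1650, while the B cell and T cell sums overlap between groups.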

How the data were processed

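The deposited values were raw counts per gene, whole numbers with 1 column per library, not pooled. GRCm39 and edgeR are named, with neither role nor version, in the submitters' processing notes. The sources used here give no aligner, counter, annotation or strand setting, though the labels' protocols describe a dUTP library. Column names matched the sample titles. Within each group, every pair of libraries differed beyond sampling noise (lowest chi-square 63 per gene). The p-values measure the spread between these libraries, which may be technical.

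Genes were kept by edgeR's filterByExpr (17606), scaled by TMM and tested with the robust quasi-likelihood F test (edgeR 4.0.16, limma 3.58.1, R 4.3.3), checked on simulated data. SE came from the F statistic, and called means an adjusted p under 0.05 over all tested genes. DESeq2 1.42.0 was an alternative. Likeness was Pearson's r of log2(CPM + 0.1). The 10 genes and all lists were chosen with earlier results of these data known. From each pathway list the text names up to 4 called genes with the smallest p, or up to 2 where none was called. The lengths and words used GENCODE vM21, by gene identifier, and the promoters RefSeq on GRCm38.p6; no coordinates were converted. Intervals and floors cover counting error and the modelled spread only.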

Additional observations from a re-analysis of the deposited data

How the results depend on the processing

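The 6 calls stood near the threshold, and their number moved with the setting, while all 10 log2 fold changes were positive in each of the 13 alternatives. Of the 10 genes, 1 was called with limma voom (71 of all genes called) and 0 with the replicate number as a block (4 of all genes called). With 1 library left out the number ran from 0 to 8, being 7 without wild-type replicate 1, and 0 without wild-type replicate 2 or 3 or knockout replicate 1 or 3. It was 5 with DESeq2 size factors (227 of all genes called) and 5 with a filter of 10 counts in 3 libraries (232). It was 8 with no filter (473), 9 with total counts and 9 with DESeq2 (1811). Calls over all genes moved with it: 253 with all libraries, 0, 4, 11 and 33 in the 4 fits with 0 members called, 382 without wild-type replicate 1, 912 without knockout replicate 2 and 1008 with total counts (5.34% higher). The replicate numbers did not pair the libraries (correlation of same-numbered deviations -0.04 to -0.01), so the block is reported only here. The log2 ratio of the summed counts was 1.15, with 1.49 under total counts and 1.05 to 1.27 with 1 library left out. Aim2 was not called in any alternative (adjusted p of 0.184 to 0.764, log2 fold change 0.32 to 0.74), and its groups did not overlap with total counts or without wild-type replicate 1 or knockout replicate 1. Genes with few counts, such as Ifi208, have wide intervals at this depth.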
